A study of Mus musculus with 15 samples.

Results

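C-type lectin pattern receptors are membrane proteins of myeloid cells that bind sugars, lipids and other patterns on fungi, mycobacteria and damaged cells. The 9 receptors described here, Clec4d, Clec4e, Clec4n, Clec5a, Clec7a, Clec4a1, Clec4a2, Clec4a3 and Clec12a, were chosen by name from the 51763 genes of a count table of mouse bone marrow-derived macrophages (BMDMs), by a list drawn up with earlier results of these data known, and not from a threshold on their counts. All 9 passed the filter on low counts, as did 16919 genes in all. RNA-seq was run on 15 libraries, 3 in each of 5 conditions, after 24 h of stimulation. The study asked how redox forms of HMGB1, a nuclear protein that acts as an alarm signal outside the cell, polarize macrophages relative to bacterial lipopolysaccharide (LPS) and to the classical M1 stimulus of LPS with interferon gamma (LPS/IFNγ).

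All cells were wild-type (WT), from young adult female C57BL/6NTac mice, and were grown from marrow with macrophage colony-stimulating factor (M-CSF). The control received PBS alone. One condition received 5 µg/mL of fully reduced HMGB1 (frHMGB1), made in the study's own laboratory, and another 5 µg/mL of disulfide HMGB1 (dsHMGB1), a gift from another laboratory, so that the redox form and the source of the protein cannot be told apart. The sources differ on the buffers. The study's methods give the reducing agent DTT for frHMGB1 and none for dsHMGB1, whereas the protocol in the labels can be read as no DTT for either. LPS was given at 1 µg/mL. For LPS/IFNγ, IFNγ was given at 20 ng/mL. One label gives LPS at 1 µg/mL there, whereas the protocol and the study's methods give it at 100 ng/mL. IFNγ and a possible difference in LPS dose therefore cannot be told apart in the comparison of LPS/IFNγ with LPS. Macrophages grown from 5 mice were pooled before they were seeded for stimulation. The p-values therefore measure only the spread between libraries of 1 pool of cells and not the spread between mice.

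The activating members signal through immunoreceptor tyrosine-based activation motifs (ITAMs) and the kinase Syk. Clec4e (Mincle), Clec4d (MCL) and Clec4n (Dectin-2) use the ITAM of the adaptor Fc receptor gamma chain, encoded by Fcer1g, Clec5a (MDL-1) uses that of DAP12, encoded by Tyrobp, and Clec7a (Dectin-1, the beta-glucan receptor) carries an ITAM-like motif in its own tail. Syk then reaches NF-kB through the Card9, Bcl10 and Malt1 complex. Clec4a2 (DCIR1) and Clec12a (MICL) carry inhibitory motifs instead, whereas Clec4a3 (DCIR3) and Clec4a1 (DCIR4) are relatives of DCIR1 without that motif.

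All 9 genes lie on mouse chromosome 6, in the GENCODE M21 annotation of GRCm38. From 122921848 to 123289870, a stretch of 368023 bp, a cluster of 9 protein-coding genes held 6 of the receptors, in the order Clec4a1, Clec4a3, Clec4a2, Clec4n, Clec4d and Clec4e. Their spans, on the plus strand, were chr6:122921848-122934619 for Clec4a1, chr6:122952515-122969875 for Clec4a3, chr6:123106428-123143999 for Clec4a2 and chr6:123229843-123247021 for Clec4n. Clec4e (chr6:123281789-123289870, minus strand) was the next gene to Clec4d (chr6:123262111-123275265, plus strand). Clec12a (chr6:129342691-129365303, plus strand) and Clec7a (chr6:129461591-129472779, minus strand) stood at the ends of a second cluster, from 129342691 to 129472779. Clec5a (chr6:40574894-40585821, minus strand) stood alone. Clec7a is typed in this annotation as a polymorphic pseudogene. Of the stretches of 50 bases in the annotated transcripts of Clec4a2, 6.83% also occurred in transcripts of other genes, mostly its neighbours Clec4a4 and Clec4b1. How reads that fit more than 1 gene were counted is not known. Over all libraries Clec4a4 had 135 reads and Clec4b1 1581, against 42310 for Clec4a2. The share of such stretches was at most 0.686% for each of the other 8.

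The upstream sequences of 5 receptors are shown because their RNA moved most between conditions or in opposite directions. Each is the stretch directly before the RefSeq start of the gene in GRCm38.p6, 5′ to 3′ on the gene's own strand, and capitals mark every match, on either strand, to 6 motifs searched: NF-kB (GGGA and TTCC with any 2 bases between), C/EBP (TTGCNNAA), AP-1 (TGANTCA), ISRE (GAAA and GAAA with any 2 bases between), GAS (TTCNNNGAA) and the core of ETS factors such as PU.1 (GAGGAA). Matches to different motifs did not overlap in these promoters. For Clec5a the last bases before the RefSeq start are left out because GENCODE places them in the gene, which leaves 234 of 250 bases, and for Clec7a the first of 2 RefSeq entries is given.
Clec4e: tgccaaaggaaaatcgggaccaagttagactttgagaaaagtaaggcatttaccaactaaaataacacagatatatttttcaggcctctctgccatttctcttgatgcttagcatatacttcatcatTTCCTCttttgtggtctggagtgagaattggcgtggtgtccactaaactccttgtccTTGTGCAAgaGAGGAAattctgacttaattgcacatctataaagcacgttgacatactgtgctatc
Clec5a: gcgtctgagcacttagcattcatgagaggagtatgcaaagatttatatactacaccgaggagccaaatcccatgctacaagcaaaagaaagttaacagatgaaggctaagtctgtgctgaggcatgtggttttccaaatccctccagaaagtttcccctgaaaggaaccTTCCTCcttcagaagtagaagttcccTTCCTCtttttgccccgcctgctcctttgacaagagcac
Clec4d: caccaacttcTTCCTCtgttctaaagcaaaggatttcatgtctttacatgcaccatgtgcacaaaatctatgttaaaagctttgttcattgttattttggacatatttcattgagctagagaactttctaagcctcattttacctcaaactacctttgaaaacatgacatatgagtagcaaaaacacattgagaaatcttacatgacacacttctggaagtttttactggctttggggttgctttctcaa
Clec4a1: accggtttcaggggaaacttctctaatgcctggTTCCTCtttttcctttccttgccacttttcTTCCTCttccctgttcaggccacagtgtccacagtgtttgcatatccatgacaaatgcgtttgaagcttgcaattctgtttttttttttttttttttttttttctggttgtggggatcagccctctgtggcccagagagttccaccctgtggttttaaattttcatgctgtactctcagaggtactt
Clec7a: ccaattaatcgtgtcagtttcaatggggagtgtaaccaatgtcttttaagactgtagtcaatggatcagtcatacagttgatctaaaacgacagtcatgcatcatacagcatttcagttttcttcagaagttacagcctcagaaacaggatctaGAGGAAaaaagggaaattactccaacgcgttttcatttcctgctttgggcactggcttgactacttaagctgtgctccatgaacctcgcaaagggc
The 2 genes with the largest rises after dsHMGB1, Clec4e and Clec5a, did not share a motif other than GAGGAA. The Clec4e stretch (chr6:123289872-123290121) held 1 C/EBP match at -66 to -59 from the start and 2 GAGGAA matches, and the Clec5a stretch (chr6:40585822-40586055) held 2 GAGGAA matches. The stretch of Clec4d (chr6:123261857-123262106) held 1 GAGGAA match, that of Clec4a1 (chr6:122921598-122921847) held 2 and that of Clec7a (chr6:129472780-129473029) held 1. The same letters stood in many promoters. Among 32851 RefSeq promoter stretches of 250 bases, GAGGAA was found in 23.25%, the C/EBP letters in 9.564%, the GAS letters in 7.02%, the AP-1 letters in 6.749%, the ISRE letters in 2.977% and the NF-kB letters in 1.208%. Of the 8 receptors with a RefSeq promoter, none held the NF-kB or ISRE letters, Clec4a2 alone held the GAS letters, at -42 to -34, and Clec12a alone the AP-1 letters. The C/EBP letters stood in Clec12a too, at -140 to -133, as well as in Clec4e. A match is a description of the letters and not a binding site.

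Total counts ran from 40934540 to 80925478 per library. PBS replicate 3 stood apart, with a Pearson r of log2 CPM (counts scaled by library size) against the other PBS libraries of 0.939 and 0.934, where r was 0.987 to 0.993 for every other replicate pair. The dsHMGB1 libraries also differed more among themselves by the chi-square of counts per degree of freedom. It was 25.3 to 96.4 for their pairs, 4.49 to 10.8 in frHMGB1, LPS and LPS/IFNγ, and 774 and 854 for the pairs with PBS replicate 3. Calls of the 9 receptors against PBS that were gained or lost without PBS replicate 3 are therefore given both ways. Macrophage markers were high in every library, with 8 of 8 listed genes detected and a summed level of 13520 to 27281 CPM. This sum, on the scale of library totals, was lowest in LPS/IFNγ (13520 to 13865) and LPS (16137 to 16844), against 21895 to 26183 in PBS. After dsHMGB1, LPS and LPS/IFNγ, 3, 4 and 4 of the 8 were called higher than in PBS (adjusted p under 0.05, edgeR). The numbers called lower were 0, 1 and 2. Of all tested genes, 23.3% and 24.2%, 26.7% and 36.2%, and 29% and 31.2% were called higher and lower. With library totals 3 rose after each, and 2, 4 and 4 fell, against 15.5% and 39.5%, 15.7% and 55.9%, and 17.6% and 51.9%. Neutrophil markers summed to at most 5.56 CPM, with Ly6g, S100a9 and Mpo at 0 in all 15 libraries, and lymphocyte markers to at most 0.152 CPM. Of the 8 dendritic cell markers, 6 or 7 had a count in each condition, with a sum of 325 to 548 CPM, and Flt3 or Siglech or both were at 0. Itgax made up most of that sum, with a mean of 20556 normalized counts in PBS, where the next, Clec9a, had 117. Fibroblast markers summed to 117 to 279 CPM and the 3 monocyte markers to 0.335 to 8.12 CPM. Single markers moved within these sums. After dsHMGB1, LPS and LPS/IFNγ respectively, the dendritic cell marker Zbtb46 rose by a Log2FC of 2.27, 3.68 and 5.08 and the fibroblast marker Dcn by 1.29, 1.79 and 1.92, while the dendritic cell marker Clec9a fell by 3.57, 3.27 and 0.81. The part of these cells in the results was not tested.

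The scale also matters. Normalized counts and fold changes (Log2FC with its standard error, SE) are from DESeq2, and adjusted p-values from edgeR's quasi-likelihood test, both of which rescale libraries to a typical gene. When library totals were used as the scale, an alternative chosen after seeing the data, the median Log2FC of all tested genes against PBS moved by 0.02 for frHMGB1, -0.35 for dsHMGB1, -0.62 for LPS and -0.66 for LPS/IFNγ. Calls that turned on this are named below. A difference in RNA per cell and in the number of cells of a type cannot be told apart in bulk RNA.

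**Figure D1:**
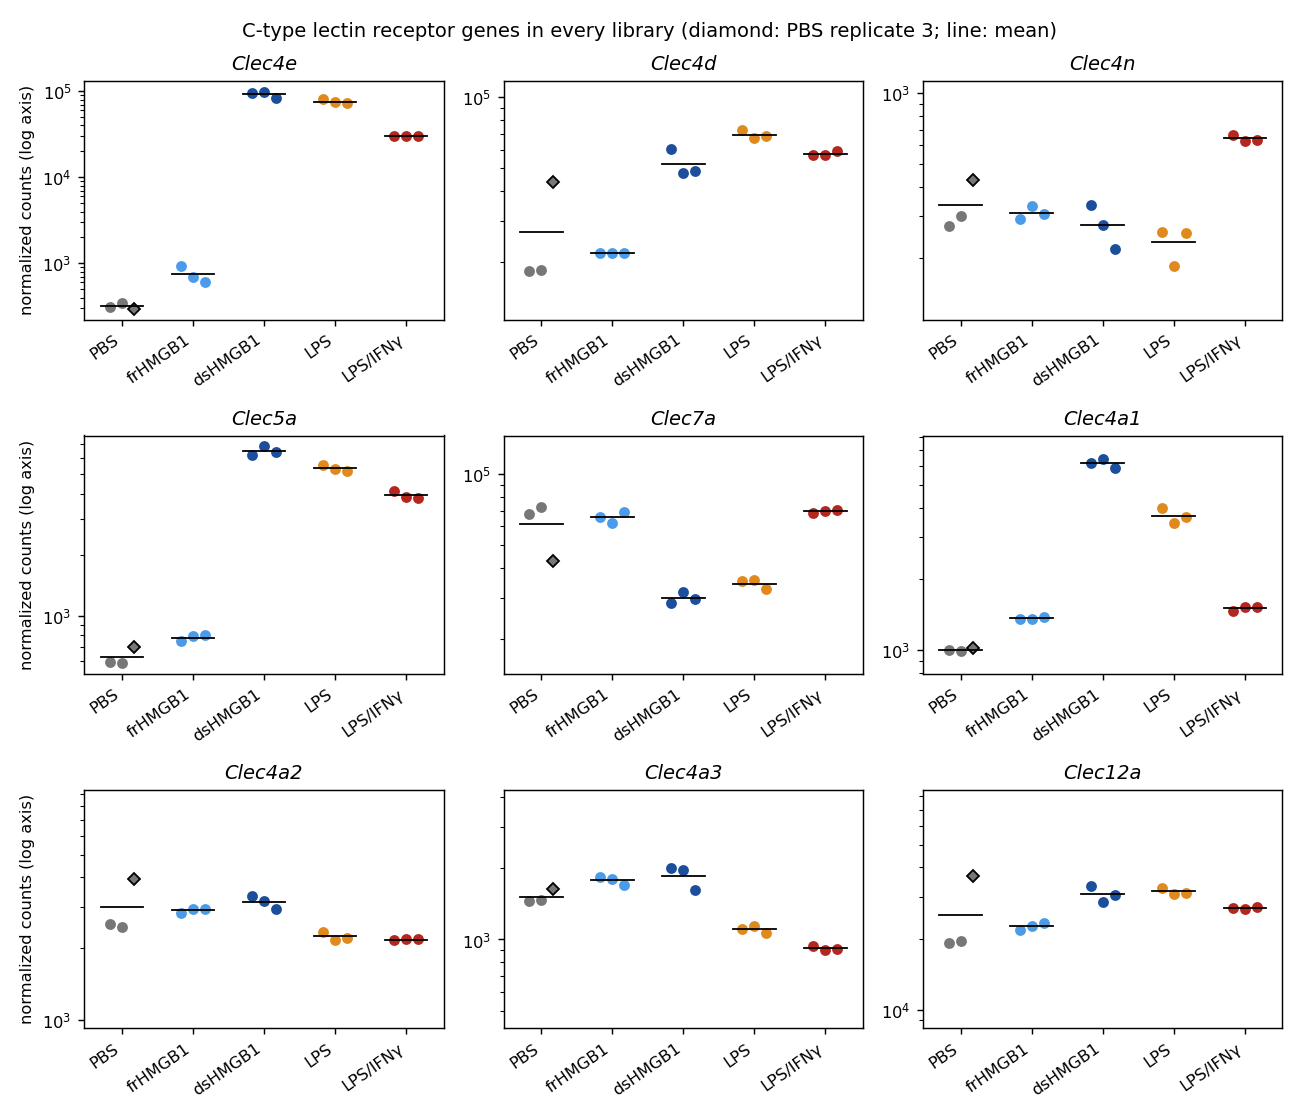
Normalized counts of the 9 receptors in each of the 15 libraries, on a log axis, by condition, with a point per library, a diamond for PBS replicate 3 and a line at the mean of the 3 libraries. Clec4e runs from 298 in PBS to 98295 in dsHMGB1, Clec7a is lower in dsHMGB1 and LPS than in the other conditions, and PBS replicate 3 stands apart for Clec4d, Clec7a, Clec4a2 and Clec12a.

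Clec4e, the receptor for mycobacterial cord factor and for a nuclear protein of dying cells, had the widest range of the 9. Its normalized counts were 314, 344 and 298 in PBS and 942, 691 and 613 in frHMGB1. They were 95787, 98295 and 83594 in dsHMGB1, 80198, 74389 and 72432 in LPS, and 30407, 30469 and 29816 in LPS/IFNγ. The 5 conditions did not overlap in any pair. Against PBS, Clec4e rose 290.0-fold after dsHMGB1 (Log2FC 8.18 ± 0.15 SE, adjusted p = 1.39e-12, edgeR), 237-fold after LPS (7.89 ± 0.15, 9.58e-13) and 94.7-fold after LPS/IFNγ (6.57 ± 0.15, 2.67e-12). It also rose 2.34-fold after frHMGB1 (Log2FC 1.23 ± 0.15, adjusted p = 0.000107, edgeR). All 4 rises were called without PBS replicate 3 and with library totals as the scale, whereas the rise after frHMGB1 was not when frHMGB1 and PBS were fitted alone (adjusted p = 0.0549, edgeR).

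Clec4d, which pairs with Clec4e and with Clec4n at the cell surface, was abundant already in PBS. Its normalized counts were 18451, 18557.5 and 43911 in PBS and 21814, 21890 and 21809 in frHMGB1. They were 60128, 47920 and 48758 in dsHMGB1, 72628, 67241 and 68316 in LPS, and 56930.5, 56980 and 59183 in LPS/IFNγ. PBS replicate 3 was above all 3 frHMGB1 libraries and below every library of the other 3 stimuli. Clec4d rose 1.94-fold after dsHMGB1 (Log2FC 0.95 ± 0.27 SE, adjusted p = 0.00433, edgeR), 2.57-fold after LPS (1.36 ± 0.27, 0.000303) and 2.14-fold after LPS/IFNγ (1.10 ± 0.27, 0.00130). The dsHMGB1 call was lost when dsHMGB1 and PBS were fitted alone (0.0866, edgeR). Without PBS replicate 3 the Log2FC values were 1.46, 1.85 and 1.57. After frHMGB1 the value was -0.30 ± 0.27 (adjusted p = 0.628, edgeR) with all libraries and 0.23 (0.0466) without that library, so its direction rested on 1 PBS library.

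Clec4n, the receptor for fungal mannans, was among the least abundant members per kilobase of exon. Its normalized counts were 273, 303 and 429 in PBS and 292, 331 and 308 in frHMGB1. They were 335, 277 and 219 in dsHMGB1, 259, 185 and 256 in LPS, and 666, 628 and 632 in LPS/IFNγ. LPS/IFNγ lay above all 12 other libraries, and LPS below all 3 of PBS. Clec4n rose 1.93-fold after LPS/IFNγ (Log2FC 0.95 ± 0.20 SE, adjusted p = 0.000664, edgeR), but with library totals as the scale the value was 0.29 (0.151). It fell after LPS to 0.701 of PBS (Log2FC -0.51 ± 0.21, adjusted p = 0.0171, edgeR), and the call was lost without PBS replicate 3 (-0.36, 0.0596), without LPS replicate 2 (-0.38, 0.120), without a filter on low counts (0.0730) and when LPS and PBS were fitted alone (0.181). The dsHMGB1 value of -0.27 ± 0.20 was not called (adjusted p = 0.246, edgeR), and with library totals as the scale it was -0.60 (0.00933).

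Clec5a, the DAP12-coupled receptor known for binding flaviviruses, followed Clec4e in order of conditions. Its normalized counts were 590, 582 and 701 in PBS and 748, 789 and 799 in frHMGB1. They were 6196, 6837 and 6397 in dsHMGB1, 5526, 5299.5 and 5146 in LPS, and 4121, 3857 and 3785 in LPS/IFNγ. No 2 conditions overlapped. Clec5a rose 10.4-fold after dsHMGB1 (Log2FC 3.38 ± 0.08 SE, adjusted p = 5.85e-12, edgeR), 8.58-fold after LPS (3.10 ± 0.09, 7.66e-12) and 6.32-fold after LPS/IFNγ (2.66 ± 0.09, 2.21e-11). After frHMGB1 it rose 1.25-fold (Log2FC 0.33 ± 0.09, adjusted p = 0.0257, edgeR), a call that was lost when PBS replicate 1, PBS replicate 2 or any 1 of the frHMGB1 libraries was left out (0.0507 to 0.0993). It was also lost with RLE scaling, a replicate block, other filters on counts or gene types, and the pair fitted alone (0.0537 to 0.757).

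Clec7a moved the other way. Its normalized counts were 67889, 72911 and 42794 in PBS and 65858, 61816 and 69067 in frHMGB1. They were 28444, 31799 and 29674 in dsHMGB1, 35088, 35586 and 32524 in LPS, and 68519, 69955 and 70587 in LPS/IFNγ. The dsHMGB1 and LPS libraries lay below all others, and LPS/IFNγ within the range of PBS. Clec7a fell after dsHMGB1 to 0.490 of PBS (Log2FC -1.03 ± 0.16 SE, adjusted p = 0.000180, edgeR) and after LPS to 0.562 (-0.83 ± 0.16, 0.000389). Without PBS replicate 3 both falls were larger, at -1.27 and -1.09. The LPS/IFNγ value was 0.19 ± 0.16 (adjusted p = 0.450, edgeR), with -0.09 without PBS replicate 3 and -0.53 (0.0314) with library totals as the scale.

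Clec4a1 was the DCIR relative with the widest range. Its normalized counts were 999.5, 992 and 1015 in PBS and 1344, 1354 and 1383 in frHMGB1. They were 6172, 6428 and 5864 in dsHMGB1, 3984, 3448 and 3655 in LPS, and 1462, 1516 and 1518 in LPS/IFNγ. The conditions did not overlap in any pair, and dsHMGB1 was the highest. Clec4a1 rose 6.15-fold after dsHMGB1 (Log2FC 2.62 ± 0.07 SE, adjusted p = 4.36e-11, edgeR), 3.69-fold after LPS (1.88 ± 0.07, 6.00e-10) and 1.36-fold after frHMGB1 (0.44 ± 0.07, 0.00378). The frHMGB1 call was lost without a filter on low counts (0.0731), among protein-coding genes (0.0574) and when frHMGB1 and PBS were fitted alone (0.227, edgeR). After LPS/IFNγ it also rose (Log2FC 0.58 ± 0.07, adjusted p = 6.55e-05, edgeR), but with library totals as the scale the value was -0.10 (0.390).

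Clec4a2, the member with an inhibitory motif in this cluster, and Clec4a3 changed less. Clec4a2 had normalized counts of 2527, 2474 and 3956 in PBS, 2822 to 2939 in frHMGB1, 2951 to 3323 in dsHMGB1, 2182 to 2353 in LPS and 2173 to 2188 in LPS/IFNγ. It fell after LPS to 0.754 of PBS (Log2FC -0.41 ± 0.16 SE, adjusted p = 0.00802, edgeR) and after LPS/IFNγ to 0.731 (-0.45 ± 0.16, 0.00734). The falls were smaller without PBS replicate 3, at -0.21 and -0.27, and the LPS call was lost without a filter on low counts (0.0557). Both calls were lost when the stimulus and PBS were fitted alone (0.231 for LPS and 0.160 for LPS/IFNγ, edgeR). Its frHMGB1 value was -0.04 ± 0.16 (adjusted p = 0.974, edgeR) with all libraries and 0.21 (0.0375) without PBS replicate 3. Its dsHMGB1 value was 0.08 ± 0.16 (adjusted p = 0.646, edgeR) with all libraries and 0.30 (0.000819) without PBS replicate 3, and with library totals as the scale it was -0.25 (0.0569). Clec4a3 had normalized counts of 1449.5, 1474 and 1635 in PBS, 1702 to 1833 in frHMGB1, 1614 to 1998 in dsHMGB1, 1063 to 1143 in LPS and 903 to 939 in LPS/IFNγ. LPS and LPS/IFNγ lay below PBS in every library, whereas dsHMGB1 overlapped with PBS. Clec4a3 fell after LPS to 0.728 of PBS (Log2FC -0.46 ± 0.10, adjusted p = 0.000376, edgeR) and after LPS/IFNγ to 0.605 (-0.73 ± 0.10, 1.40e-05), of which the LPS call was lost when LPS and PBS were fitted alone (0.0501). It rose after dsHMGB1 (Log2FC 0.29 ± 0.10, adjusted p = 0.0250, edgeR), but the call was lost without PBS replicate 1, dsHMGB1 replicate 1 or dsHMGB1 replicate 2 (0.0589 to 0.0937) and when dsHMGB1 and PBS were fitted alone (0.220), and with library totals as the scale the value was -0.06 (0.629). Its frHMGB1 libraries all lay above those of PBS, with a value of 0.23 ± 0.10 (adjusted p = 0.192, edgeR) with all libraries and 0.28 (0.0322) without PBS replicate 3.

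Clec12a, an inhibitory receptor for uric acid crystals and dead cells, had normalized counts of 19191, 19497 and 36908 in PBS and 21679.5 to 23221 in frHMGB1. They were 28687.5 to 33488 in dsHMGB1, 30864 to 32872 in LPS and 26689 to 27200 in LPS/IFNγ. PBS replicate 3 was the highest of all 15 libraries and the other PBS libraries were the lowest. With all libraries no value against PBS was called (Log2FC -0.16 to 0.33, adjusted p = 0.170 to 0.768, edgeR). Without PBS replicate 3 all 4 were called, with Log2FC 0.21 after frHMGB1 (adjusted p = 0.0279), 0.64 after dsHMGB1 (9.81e-08), 0.65 after LPS (5.15e-08) and 0.41 after LPS/IFNγ (1.73e-05). With library totals as the scale the last 3 turned to -0.02 (adjusted p = 0.927, edgeR), -0.32 (0.0574) and -0.54 (0.00396), the last of them called lower. Its direction depended on the scale and, after frHMGB1 and LPS/IFNγ, on single PBS libraries, and its calls on the scale and on 1 PBS library.

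**Figure D2:**
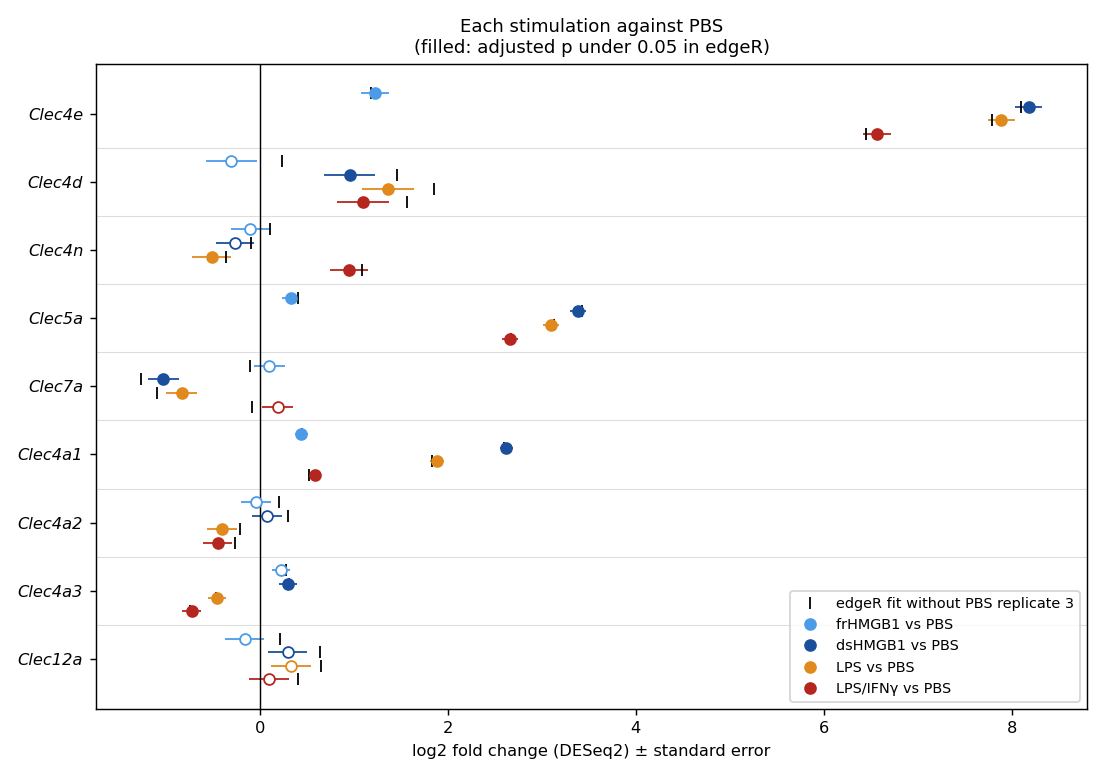
Log2FC against PBS of each of the 9 receptors (DESeq2) for the 4 stimuli, with bars of 1 SE, filled points for an adjusted p under 0.05 (edgeR) and ticks for the edgeR value without PBS replicate 3. Clec4e and Clec5a lie far above 0 in dsHMGB1, LPS and LPS/IFNγ, up to 8.18 for Clec4e in dsHMGB1, and Clec7a lies below 0 in dsHMGB1 and LPS, at -1.03 and -0.83.

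Of the 9 receptors, 5 rose after dsHMGB1 (Clec4e, Clec4d, Clec5a, Clec4a1 and Clec4a3) and 1 fell (Clec7a), where 23.3% of all tested genes were called higher than in PBS and 24.2% lower. With library totals as the scale 4 rose and 2 fell, against 15.5% and 39.5% of all genes. After LPS 4 rose and 4 fell, where 26.7% of all genes were called higher and 36.2% lower, and with library totals the members' counts were again 4 and 4 while the shares of all genes were 15.7% and 55.9%. After LPS/IFNγ 5 rose and 2 fell, against 29% and 31.2% of all genes, and with library totals 3 rose and 4 fell, against 17.6% and 51.9%. After frHMGB1, 3 receptors rose (Clec4e, Clec5a and Clec4a1) and 0 fell by edgeR's adjusted p, where 1.31% of all genes were called higher and 5.69% lower. At an unadjusted p under 0.05 (edgeR) 4 were higher and 0 lower, and DESeq2 called 3 and 0. With PBS replicate 3 left out, 7 of 9 were called higher after frHMGB1 and 0 lower, where 8.41% and 9.09% of all genes were, with Log2FC from 0.21 to 1.18. That fit called 7 higher and 1 lower after dsHMGB1 (29.8% and 29% of all genes), 5 and 3 after LPS (32.9% and 38.3%) and 6 and 2 after LPS/IFNγ (33.3% and 34.4%). With library totals the frHMGB1 counts were 3 and 0, against 1.09% and 5.6%. The median Log2FC of the 9 was 0.10 after frHMGB1, 0.29 after dsHMGB1, 0.33 after LPS and 0.58 after LPS/IFNγ, with medians over all tested genes of -0.01, -0.10, -0.21 and -0.12. With library totals as the scale the middle values of the 9 were 0.11 (Clec7a), -0.02 (Clec12a), -0.32 (Clec12a) and -0.10 (Clec4a1) in that order. The medians over all tested genes were then 0.03, -0.46, -0.89 and -0.81. The sign of the receptors' median after dsHMGB1, LPS and LPS/IFNγ thus depended on the scale. The 4 comparisons share the PBS libraries.

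The comparisons among stimuli use no PBS library directly, although PBS replicate 3 enters the shared estimate of spread. Between dsHMGB1 and LPS, 4 receptors were higher in dsHMGB1 and 0 lower by edgeR, where 15.8% of all genes were called higher and 10.6% lower. At an unadjusted p under 0.05 (edgeR) 5 were higher and 0 lower, and DESeq2 called 4 and 0. Leaving out PBS replicate 3 gave 5 higher and 2 lower, against 25.6% and 23.3% of all genes, and with library totals as the scale 6 and 0, against 27.5% and 5.23%. Clec4a3 was 1.68-fold higher in dsHMGB1 than in LPS (Log2FC 0.75 ± 0.10 SE, adjusted p = 4.51e-05, edgeR), Clec4a1 1.66-fold (0.74 ± 0.07, 1.69e-05), Clec4a2 1.40-fold (0.48 ± 0.16, 0.00809) and Clec5a 1.22-fold (0.28 ± 0.08, 0.00919), the last not without LPS replicate 2 (0.0618) or LPS replicate 3 (0.0724). All 3 DCIR relatives were thus higher in dsHMGB1. Clec4e did not pass the test (Log2FC 0.29 ± 0.14, adjusted p = 0.0858, edgeR), although its dsHMGB1 libraries all lay above those of LPS, and without PBS replicate 3 it passed (0.31, 0.0144). Clec4d, whose dsHMGB1 libraries all lay below those of LPS, had a value of -0.41 ± 0.27 (adjusted p = 0.313, edgeR), and -0.39 (0.000154) without PBS replicate 3.

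Between dsHMGB1 and LPS/IFNγ the receptors differed more. Here 5 were higher in dsHMGB1 and 2 lower, where 16.5% and 16.7% of all genes were called, with library totals as the scale 6 and 2, against 28.4% and 9.83%, and without PBS replicate 3 also 6 and 2, against 27.9% and 25.4%. Clec4a1 was 4.11-fold higher in dsHMGB1 (Log2FC 2.04 ± 0.07 SE, adjusted p = 1.77e-09, edgeR), Clec4e 3.06-fold (1.61 ± 0.14, 1.14e-06), Clec4a3 2.03-fold (1.02 ± 0.10, 2.36e-06), Clec5a 1.65-fold (0.72 ± 0.08, 1.44e-05) and Clec4a2 1.44-fold (0.53 ± 0.16, 0.00554). The 2 receptors lower in dsHMGB1 were Clec7a and Clec4n. Clec4d, which pairs with Clec4n, was not called (Log2FC -0.14 ± 0.27, adjusted p = 0.750, edgeR). Clec7a was at 0.430 of its LPS/IFNγ level (Log2FC -1.22 ± 0.16, adjusted p = 9.62e-05, edgeR) and Clec4n at 0.431 (-1.21 ± 0.20, 0.000221).

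The same pair was higher in LPS/IFNγ than in LPS alone. By the study's methods the LPS dose was also lower in LPS/IFNγ, so IFNγ and dose cannot be told apart here. Relative to LPS alone, Clec4n was 2.75-fold higher in LPS/IFNγ (Log2FC 1.46 ± 0.21 SE, adjusted p = 5.97e-05, edgeR) and Clec7a 2.03-fold (1.02 ± 0.16, 0.000413). In the other direction, Clec4e was at 0.399 of LPS (Log2FC -1.32 ± 0.14, adjusted p = 1.63e-05, edgeR), Clec4a1 at 0.405 (-1.30 ± 0.07, 2.22e-07) and Clec5a at 0.736 (-0.44 ± 0.08, 0.00281). That is 2 higher and 3 lower of 9, where 16.3% and 9.36% of all genes were called. The fit without PBS replicate 3 called 2 higher and 6 lower, against 25.1% and 24.3% of all genes, and library totals gave 2 and 3, against 14.7% and 9.81%. These 5 differences kept their direction with library totals as the scale, which moved the median of all genes by -0.03.

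Between the HMGB1 forms, 4 receptors were higher in dsHMGB1 than in frHMGB1 and 1 lower, where 27.7% and 23.1% of all genes were called. With library totals as the scale 4 were higher and 4 lower, against 19.7% and 37.5%, and without PBS replicate 3, 5 were higher and 1 lower, against 35.8% and 32.9%. Clec4e was 124-fold higher (Log2FC 6.95 ± 0.14 SE, adjusted p = 4.82e-12, edgeR), Clec5a 8.32-fold (3.06 ± 0.09, 1.66e-11), Clec4a1 4.53-fold (2.18 ± 0.07, 2.66e-10) and Clec4d 2.39-fold (1.26 ± 0.27, 0.000739). Clec7a was at 0.457 of its frHMGB1 level (Log2FC -1.13 ± 0.16, adjusted p = 7.45e-05, edgeR). Clec12a did not pass (Log2FC 0.46 ± 0.21, adjusted p = 0.0537, edgeR), with all dsHMGB1 libraries above those of frHMGB1, and without PBS replicate 3 it did (0.43, 2.68e-06).

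**Figure D3:**
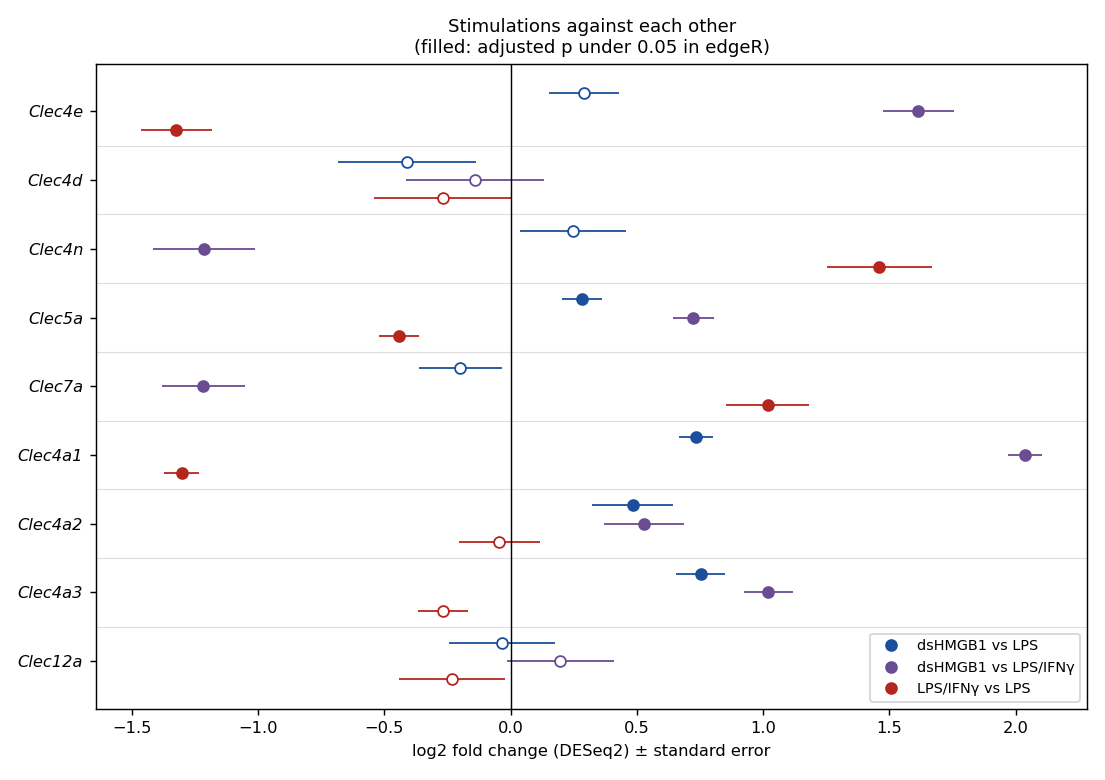
Log2FC between stimuli (DESeq2) of each of the 9 receptors, for dsHMGB1 against LPS, dsHMGB1 against LPS/IFNγ and LPS/IFNγ against LPS, with bars of 1 SE and filled points for an adjusted p under 0.05 (edgeR). In LPS/IFNγ against LPS, Clec4n and Clec7a lie above 0, at 1.46 and 1.02, and Clec4e and Clec4a1 below 0, at -1.32 and -1.30.

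Per kilobase of exon, the order of the receptors changed with the stimulus. In PBS it ran from Clec7a, with a mean of 23199 ± 6116 (SD, n = 3) normalized counts per kb, and Clec4d (16869 ± 9174) through Clec12a (4558 ± 1835), Clec4a3 (1145 ± 76.0), Clec4a2 (1020 ± 287), Clec4a1 (643 ± 7.36), Clec4n (236 ± 58.3) and Clec5a (163 ± 17.2) to Clec4e (64.1 ± 4.71). Clec7a and Clec4d lay within their spread of each other there, as did Clec4a3 and Clec4a2. In dsHMGB1, Clec4e ranked 2, at 18642 ± 1584 normalized counts per kb, behind Clec4d (32688 ± 4264) and ahead of Clec7a (11362 ± 643). Clec4n was last there, at 195 ± 40.8. Clec4e also ranked 2 in LPS, with 15241 normalized counts per kb, and 3 in LPS/IFNγ, with 6089 ± 72.5, behind Clec4d (36084 ± 804) and Clec7a (26417 ± 402). The annotation was not matched to the form expressed in these cells, so per-length levels depend on the length used. With the longest transcript as the length, Clec4e ranked 4 in LPS/IFNγ.

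Across the 15 libraries, Clec4e and Clec5a had the closest profiles of any pair of members, with a Pearson r of log2 CPM of 0.996, although they lie far apart on the chromosome. The neighbours Clec4e and Clec4d had an r of 0.884. Clec7a ran against Clec4a1, with r of -0.873. The members aside, 10103 tested genes of the protein-coding type or the type of Clec7a had a mean of at least 100 normalized counts. Among these, the profile nearest to that of Clec4e was Dram1 (r = 0.998), followed by Icosl (0.997). Icosl was also nearest to Clec5a (0.995), Psma3 to Clec4d (0.996), Hprt to Clec4n (0.975), Paip2b to Clec7a (0.976), Tspan3 to Clec4a1 (0.989), Smim10l1 to Clec4a2 (0.956), Cd72 to Clec4a3 (0.974) and Acaa1a to Clec12a (0.984). The libraries fall into 5 conditions, so these correlations describe shared differences between conditions and carry no test.

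**Figure D4:**
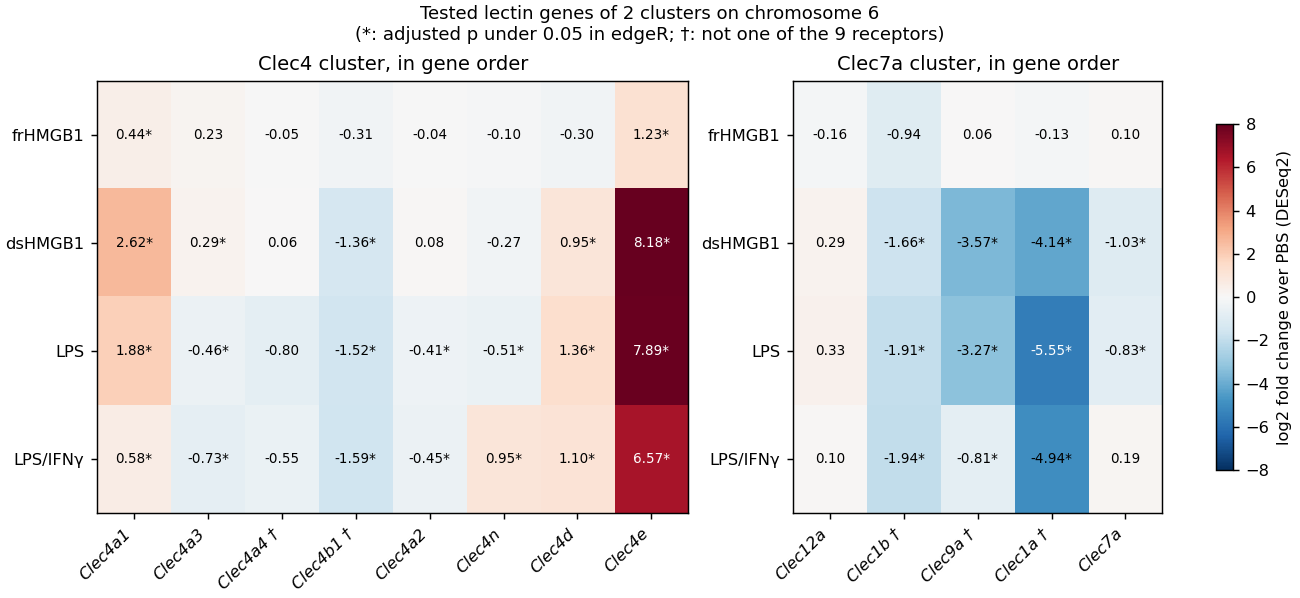
Log2FC against PBS (DESeq2) of the tested lectin genes of both clusters, in gene order, for the 4 stimuli, as colours that end at 8 and as numbers, with a star for an adjusted p under 0.05 (edgeR) and a dagger for genes that are not members. In dsHMGB1, Clec4e is at 8.18 and its neighbour Clec4d at 0.95, while Clec7a is at -1.03 and its neighbour Clec1a at -4.14.

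The pathway below the receptors was described with a list of 33 genes, all of which passed the filter. Of these, 14 rose and 8 fell after dsHMGB1, 15 rose and 11 fell after LPS, 16 rose and 13 fell after LPS/IFNγ, and 2 rose and 0 fell after frHMGB1 (Fgr and Ptpn6) by edgeR. The shares of all tested genes called higher and lower were 23.3% and 24.2%, 26.7% and 36.2%, 29% and 31.2%, and 1.31% and 5.69% in the same order. Leaving out PBS replicate 3 gave the list counts of 16 and 11, 17 and 14, 15 and 13, and 8 and 0, so the frHMGB1 count rested on that library. The shares of all genes in that fit were 29.8% and 29%, 32.9% and 38.3%, 33.3% and 34.4%, and 8.41% and 9.09%. For frHMGB1, 4 were higher and 0 lower at an unadjusted p under 0.05 (edgeR), and DESeq2 called 3 and 0. On the DESeq2 scale, the median Log2FC of the list was 0.18 after dsHMGB1, 0.18 after LPS, 0.24 after LPS/IFNγ and 0.11 after frHMGB1. With library totals as the scale the counts were 10 and 13, 11 and 18, 9 and 16, and 2 and 0 in that order. The shares of all genes were then 15.5% and 39.5%, 15.7% and 55.9%, 17.6% and 51.9%, and 1.09% and 5.6%. The balance after dsHMGB1, LPS and LPS/IFNγ thus moved toward falls with this scale, over all genes as in the list. By role, 5, 6 and 5 of the 8 kinases rose and 0, 0 and 1 fell after dsHMGB1, LPS and LPS/IFNγ, and with library totals 5, 4 and 3 rose and 1, 2 and 3 fell. Of the 6 downstream effectors, 1 rose after each of these stimuli and 3, 5 and 5 fell, against 4, 5 and 5 that fell with library totals. In the Card9 complex 3 of 4 genes rose and 1 fell after each of them, and with library totals 2 rose and 1 fell. The shares of all genes for these counts by role are those given above for each scale.

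The 6 genes of the list with the largest changes kept their direction with library totals as the scale. Malt1, the protease of the Card9 complex, had normalized counts of 4127, 4380 and 1425 in PBS, 42232 to 54246 in dsHMGB1, 79800 to 85364 in LPS and 81311 to 85628 in LPS/IFNγ (Log2FC 3.86 ± 0.30 SE, 4.64 ± 0.30 and 4.65 ± 0.30). The Src-family kinase genes Src (2.82, 3.61 and 3.71) and Lyn (2.19, 2.24 and 3.00) rose after dsHMGB1, LPS and LPS/IFNγ respectively, as did the phosphatase gene Ptprj (3.02, 3.46 and 3.35). Inpp5d, which encodes the inhibitory lipid phosphatase SHIP1, fell by 2.04, 3.43 and 2.82 on the log2 scale, from 6742 to 11174 normalized counts in PBS to 2166 to 2458 in dsHMGB1, 726 to 991 in LPS and 1309 to 1398 in LPS/IFNγ. Nfatc2, which encodes a calcineurin-dependent transcription factor, fell by 2.97, 2.48 and 2.03 on the log2 scale, from 1113, 1051 and 565 normalized counts in PBS to 96.1 to 131 in dsHMGB1, 156 to 173 in LPS and 190 to 254 in LPS/IFNγ. The adjusted p-values of these calls were at most 7.80e-05 (edgeR).

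The direct partners of the receptors, named after their values were seen, did not all move one way. Syk had 17138 to 26007 normalized counts in PBS, 87926 to 101114 in dsHMGB1, 77568 to 86511 in LPS and 64308 to 65304 in LPS/IFNγ, and rose by a Log2FC of 2.08 ± 0.14 SE, 1.86 ± 0.14 and 1.51 ± 0.14 (adjusted p = 9.65e-08, 2.37e-07 and 1.42e-06, edgeR). Card9 had 1980, 1916 and 5249 normalized counts in PBS and fell to 1296 to 1830 in dsHMGB1 (Log2FC -0.95 ± 0.32, adjusted p = 0.0153, edgeR), 1061 to 1308 in LPS (-1.38 ± 0.32, 0.000735) and 856 to 921 in LPS/IFNγ (-1.78 ± 0.32, 0.000120). Without PBS replicate 3, the highest of the PBS libraries, these falls were smaller, at -0.34, -0.79 and -1.21, and were still called, and the frHMGB1 value turned from -0.26 (adjusted p = 0.764, edgeR) to 0.38 (0.0221). Tyrobp fell by 0.58, 0.52 and 0.93 on the log2 scale (adjusted p = 0.0126, 0.00999 and 0.000302, edgeR), with PBS libraries at 49864, 46910 and 89864 and dsHMGB1 libraries at 38089 to 45214 normalized counts. These values were -0.25, -0.22 and -0.63 without PBS replicate 3, all called, and that after frHMGB1 turned from -0.08 (0.922) to 0.28 (adjusted p = 0.00510, edgeR). Fcer1g rose by 0.53, 1.12 and 0.66 (adjusted p = 0.0122, 5.45e-05 and 0.00275, edgeR), but with library totals as the scale its values were 0.21 (0.175), 0.46 (0.00541) and 0.02 (0.901). After frHMGB1 it was called without PBS replicate 3 (0.31, adjusted p = 0.0136, edgeR) and not with all libraries (0.934).

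**Figure D5:**
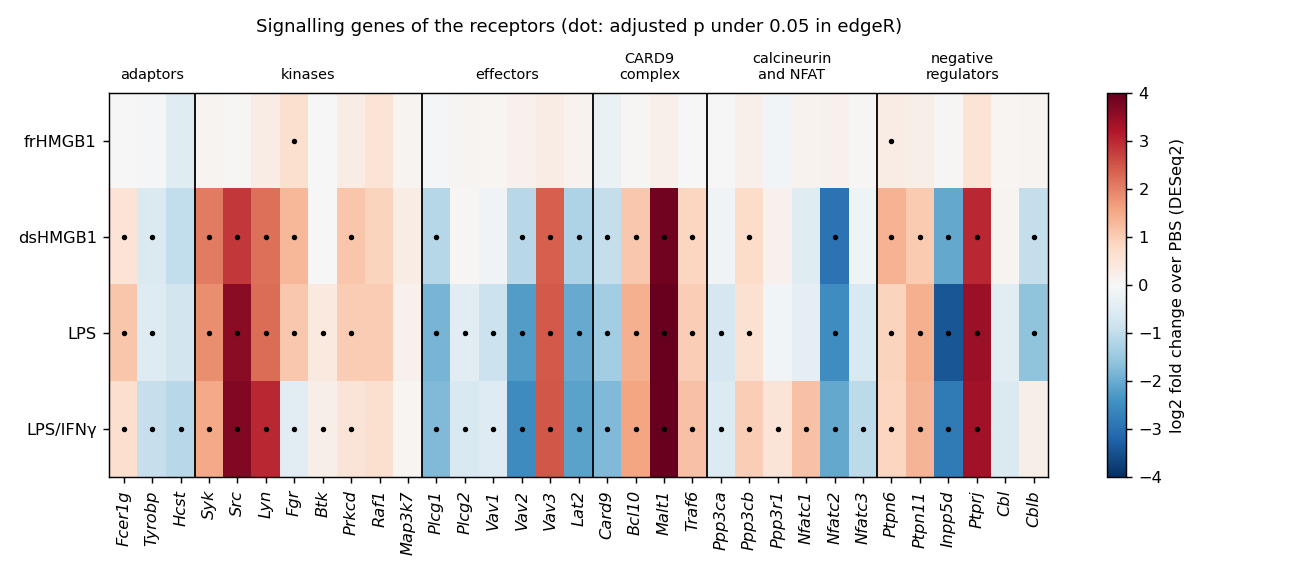
Log2FC against PBS (DESeq2) of the 33 pathway genes, grouped by role, for the 4 stimuli, as colours that end at 4 on either side, with a dot for an adjusted p under 0.05 (edgeR). Malt1 is the largest rise, at 4.65 in LPS/IFNγ, and Inpp5d the largest fall, at -3.43 in LPS, and 2 genes carry a dot in frHMGB1.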

How the data were processed

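RNA of BMDMs in 5 conditions, 3 libraries each, was sequenced from stranded mRNA libraries. Per the labels and the study's methods, the authors aligned reads to GRCm38 with STAR and deposited raw counts per Ensembl gene; the program that counted them is not given in the sources used here. All 15 columns were matched to samples by name. Of 51763 gene identifiers, 51661 matched GENCODE M21.

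The deposited counts were analysed in R 4.3.3. The main test was edgeR 4.0.16 (quasi-likelihood F test, TMM, filterByExpr with a minimum count of 10 and a minimum total of 15, all 15 libraries in 1 fit, no covariates) with Benjamini-Hochberg adjustment over 16919 genes and a threshold of 0.05, in 8 comparisons. It was also run on simulated counts drawn independently for each library. These held no library that stood apart like PBS replicate 3 and no broad change between conditions. They therefore do not bear on calls that turned on that library or on the scale. Normalized counts, unshrunken Log2FC and SE came from DESeq2 1.42.0, which the authors also used. Values without PBS replicate 3 and with library totals are edgeR estimates. CPM for profiles used a prior count of 2. Exon lengths came from GENCODE M21 and promoters from RefSeq (GRCm38.p6), where 8 of the 9 receptors had an entry, Clec4n not among them. Total counts of at least 40934540 per library gave every receptor at least 124 reads in each library. No pair of replicates was closer than sampling noise.

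The members and lists were chosen with earlier results of these data known. All members are named, with the genes of each list of largest absolute Log2FC among those called, up to 6, and the nearest profiles. For the pathway list, 1 gene is not reported here.

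Alternatives were RLE scaling, the DESeq2 test, other filters on low counts or gene types, conditions fitted in pairs, a replicate block, each library left out, the study's cut-off of a Log2FC past 2 and the longest transcript as the length. Library totals as the scale, and a gene-type filter that keeps Clec7a, were chosen after seeing the data.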

Additional observations from a re-analysis of the deposited data

How the results depend on the processing

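Receptors called are counts of 9. After frHMGB1, 3 were called, against 1 without a filter on low counts, 1 among protein-coding genes, 1 when the gene type of Clec7a was added, 0 when the pair was fitted alone and 0 past a Log2FC of 2 in size. That cut-off gave 3 for dsHMGB1 against PBS (6 by edgeR), 2 for LPS (8), 2 for LPS/IFNγ (7), 0 for dsHMGB1 against LPS (4), 1 for dsHMGB1 against LPS/IFNγ (7), 0 for LPS/IFNγ against LPS (5) and 3 for dsHMGB1 against frHMGB1 (5). Fitting the pair alone gave 5 for LPS against PBS and 8 for LPS/IFNγ against LPS, and library totals gave 8 for dsHMGB1 against frHMGB1. Leaving out 1 library gave, in the order frHMGB1, dsHMGB1, LPS and LPS/IFNγ against PBS, 2 to 7, 5 to 8, 7 to 8 and 7 to 8, and for dsHMGB1 against LPS 3 to 7, dsHMGB1 against LPS/IFNγ 7 to 8, LPS/IFNγ against LPS 5 to 8 and dsHMGB1 against frHMGB1 5 to 6. PBS replicate 3 gave the 7, 7 and 8 for frHMGB1 against PBS, dsHMGB1 against LPS and LPS/IFNγ against LPS.

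Of the 72 Log2FC values, 54 kept their direction and call with library totals and 12 turned: Clec4a2 after frHMGB1 to 0.035 and after dsHMGB1 to -0.25, Clec4a3 after dsHMGB1 to -0.062, Clec12a to -0.018, -0.32 and -0.54 after dsHMGB1, LPS and LPS/IFNγ, Clec7a and Clec4a1 after LPS/IFNγ to -0.53 and -0.10, Clec7a between dsHMGB1 and LPS to 0.14, Clec4d between dsHMGB1 and LPS/IFNγ to 0.18, and Clec4a2 and Clec4a3 between dsHMGB1 and frHMGB1 to -0.29 and -0.34. The edgeR value of Clec12a between dsHMGB1 and LPS (0.02) turned to -0.034 with RLE scaling, -0.034 with DESeq2 and -0.0041 without a filter. That of Clec4a2 between LPS/IFNγ and LPS (-0.01) turned to 0.0079 with the 1 CPM filter, 0.035 among protein-coding genes and 0.035 with the type of Clec7a added. Leaving out 1 library turned Clec4d (-0.46 to 0.23), Clec4n (-0.19 to 0.10), Clec7a (-0.11 to 0.27), Clec4a2 (-0.11 to 0.21) and Clec12a (-0.27 to 0.21) after frHMGB1, Clec4a2 after dsHMGB1 (-0.017 to 0.30), Clec7a (-0.086 to 0.31) and Clec12a (-0.054 to 0.41) after LPS/IFNγ, Clec12a between dsHMGB1 and LPS (-0.072 to 0.068) and Clec4a3 between dsHMGB1 and frHMGB1 (-0.012 to 0.14). Fitting each pair of conditions alone lost 9 calls of the 72 and added 7. The cause of these changes was not tested.

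The deviations of same-numbered libraries correlated above 0.1 in all 3 pairs for dsHMGB1 and LPS (0.182, 0.167 and 0.122) and in no other pair of conditions (LPS and LPS/IFNγ 0.0390, 0.0584 and 0.0243), and the labels give no shared batch. Those of PBS and dsHMGB1 were the largest in size but of mixed sign (-0.721, 0.707 and -0.297). PBS and LPS also differed in sign (-0.165, 0.186 and 0.0045). The cause of these values was not tested. With the replicate number as a block, 71 of 72 values kept their direction and call, and the rise of Clec5a after frHMGB1 lost its call (0.34, adjusted p = 0.0599, edgeR). The counts of receptors called with the replicate block were 2 after frHMGB1 and, in the other 7 comparisons, the same as without it.

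Counts of all genes called higher and lower also moved. For frHMGB1 against PBS they were 222 and 963, against 502 and 1258 by DESeq2, 96 and 1028 without a filter, 169 and 547 with the 1 CPM filter, 7 and 182 for the pair alone, 41 and 29 among protein-coding genes, 42 and 31 with the type of Clec7a added, 103 and 1156 past a Log2FC of 2, 1459 and 1576 without PBS replicate 3, and 114 to 140 and 704 to 726 without 1 frHMGB1 library. Past a Log2FC of 2 they were 1427 and 806 for dsHMGB1 against PBS (3936 and 4092 by edgeR), 1839 and 2375 for LPS (4515 and 6121), 2047 and 1640 for LPS/IFNγ (4914 and 5284), 1160 and 255 for dsHMGB1 against LPS (2670 and 1791), 437 and 644 for dsHMGB1 against LPS/IFNγ (2797 and 2824), 1285 and 253 for LPS/IFNγ against LPS (2765 and 1583) and 2323 and 713 for dsHMGB1 against frHMGB1 (4688 and 3905). Fitted as pairs, they were 2493 and 2254, and 3712 and 3685, for dsHMGB1 and LPS against PBS, and 3761 and 3224, 4296 and 4284, and 4564 and 4435 for the 3 pairs among these stimuli. Without PBS replicate 3 those 3 pairs gave 4433 and 4032, 4840 and 4398, and 4353 and 4213.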

Other observations

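Outside the 9 receptors, 28 other C-type lectin or related genes were listed, and 19 passed the filter on low counts. By edgeR, 6 rose and 7 fell after dsHMGB1, 7 rose and 6 fell after LPS, and 9 rose and 6 fell after LPS/IFNγ, where 23.3% and 24.2%, 26.7% and 36.2%, and 29% and 31.2% of all tested genes were called. With library totals as the scale 6 rose and 8 fell after each of these stimuli. The shares of all genes were then 15.5% and 39.5%, 15.7% and 55.9%, and 17.6% and 51.9%. The balance after LPS and LPS/IFNγ thus turned with the scale, where the shares of all genes also moved toward falls. After frHMGB1 edgeR called 0 higher and 0 lower, where 1.31% and 5.69% of all genes were called. At an unadjusted p under 0.05 (edgeR) 4 were higher and 1 lower, and DESeq2 called 2 higher and 0 lower. Cd69, an early activation marker of lymphocytes, had a mean of 19.3 normalized counts in PBS and 44346, 59544 and 57385 after dsHMGB1, LPS and LPS/IFNγ (Log2FC 11.12, 11.55 and 11.49). Olr1, which encodes the receptor LOX-1 for oxidized lipoprotein, had a mean of 8.65 in PBS and 1713, 3426 and 15412 in the same order (Log2FC 7.46, 8.46 and 10.63). Klrk1, which encodes the natural killer receptor NKG2D, was at 0 counts in all 3 PBS libraries and had means of 174, 388 and 627 normalized counts after the 3 stimuli. The part of lymphocytes in these values was not tested, and the summed level of the lymphocyte markers was at most 0.152 CPM.

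Clec1a, the melanin receptor encoded next to Clec7a, fell from a mean of 546 normalized counts in PBS to 30.9, 11.8 and 17.8 after dsHMGB1, LPS and LPS/IFNγ (Log2FC -4.14, -5.55 and -4.94). Clec2i fell from a mean of 29.3 to 8.93, 1.99 and 6.94 normalized counts. Cd207, which encodes Langerin, had a mean of 14.4 in PBS and 9.26 in LPS and rose to 388 in LPS/IFNγ (Log2FC 4.78 ± 0.52 SE, adjusted p = 3.04e-06, edgeR). The difference between LPS/IFNγ and LPS was also called (Log2FC 5.38 ± 0.58, adjusted p = 1.29e-05, edgeR). Clec9a, a dendritic cell marker in the second cluster that was named after its values were seen, fell from a mean of 117 in PBS to 9.73 with dsHMGB1, 12.0 with LPS and 67.1 with LPS/IFNγ.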
